A study of Mus musculus with 32 samples.

Results

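Mice bearing liver tumors were treated with an antibody against PD1 alone or with vehicle, and the tumors were profiled by RNA sequencing. These 6 libraries (3 anti-PD1, 3 vehicle) were chosen by their labelled treatment and experiment from the 32 libraries of the series. All tumors were grown from BNL-MEA, a mouse liver cancer cell line implanted under the liver capsule of BALB/c mice, so the model is 1 line in 1 strain, with no engineered allele given in the labels. The same experiment held mice given regorafenib at 5 mg/kg/day, an oral inhibitor of several kinases including the VEGF receptors, alone (n = 3) or with anti-PD1 (n = 3). The anti-PD1 antibody was given by repeated intraperitoneal injections. The labels give no age, sex or interval from last dose to collection. The study's methods name an isotype control antibody, and whether the mice labelled vehicle received it is not stated. According to the study the libraries of a group came from separate tumors, although the labels do not tie a library to a mouse.

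PD1, encoded by Pdcd1, is an inhibitory receptor that T cells display after activation. Its ligands PD-L1 (Cd274) and PD-L2 (Pdcd1lg2) are carried by tumor cells, myeloid cells and endothelium, and their binding recruits phosphatases that dampen signals from the T cell receptor and CD28. Antibodies that block PD1 are used to release cytotoxic T cells, and interferon gamma from those cells induces PD-L1, MHC molecules and the chemokines Cxcl9 and Cxcl10.

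Total counts were 20.5 to 21.9 M in the anti-PD1 libraries and 21.2 to 23.5 M in the vehicle libraries. Libraries of a group differed far beyond sampling noise, and vehicle replicates 2 and 3 lay at opposite ends of the first principal component among these 6 libraries, at 57.5 and -89.3, with the anti-PD1 libraries between 14.6 and 48.3. The second component, with 20.3% of the variance against 33.8% for the first, separated the groups. Vehicle libraries were at -38.3, -67.8 and -53.2 on it and anti-PD1 libraries at 49.3, 41.7 and -5.8. Vehicle replicate 1 had the highest share of reads from T cell receptor gene segments, 33.8 CPM (counts scaled to a common library total) against 3.76 to 12.6 CPM in the other 5 libraries. In the labelled tissue, hepatocellular carcinoma, hepatocyte transcripts were present in all 6 libraries, but Afp, the fetal liver protein used as a marker of this cancer, was at only 0.436 to 1.11 CPM.

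No gene differed between anti-PD1 and vehicle tumors at an adjusted p below 0.05. Of 16615 genes tested with edgeR's quasi-likelihood test, 0 passed, the smallest adjusted p was 0.249, and 2269 genes (13.7%) had an unadjusted p under 0.05. limma-voom also passed 0 genes, whereas the DESeq2 Wald test passed 614, of which 198 were higher and 416 lower with anti-PD1. Among the genes at an unadjusted p under 0.05, 810 were higher (4.88% of those tested) and 1459 were lower (8.78%). The lower genes differed by more, with a median absolute log2 change of 1.82 against 0.79 for the higher ones, and they were expressed at a lower median level, 1.91 against 4.96 log2 CPM. Complete separation, in which all 3 anti-PD1 values lay beyond all 3 vehicle values, was seen for 1233 genes upward (7.42%) and 1529 genes downward (9.2%). Hepatocyte, Kupffer, endothelial, proliferation, stress response, T cell receptor and tumor macrophage lists were tested whole, while the low-count filter removed part of others, leaving 9 of 18 mast cell, 11 of 17 erythrocyte, 7 of 14 platelet, 7 of 18 muscle, 4 of 18 pancreas and gut, 4 of 12 skin and 15 of 17 IL-6 genes. Differences below are therefore described by direction, size and unadjusted p (from the edgeR fit unless another tool is named), beside these shares over all tested genes.

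**Figure D1:**
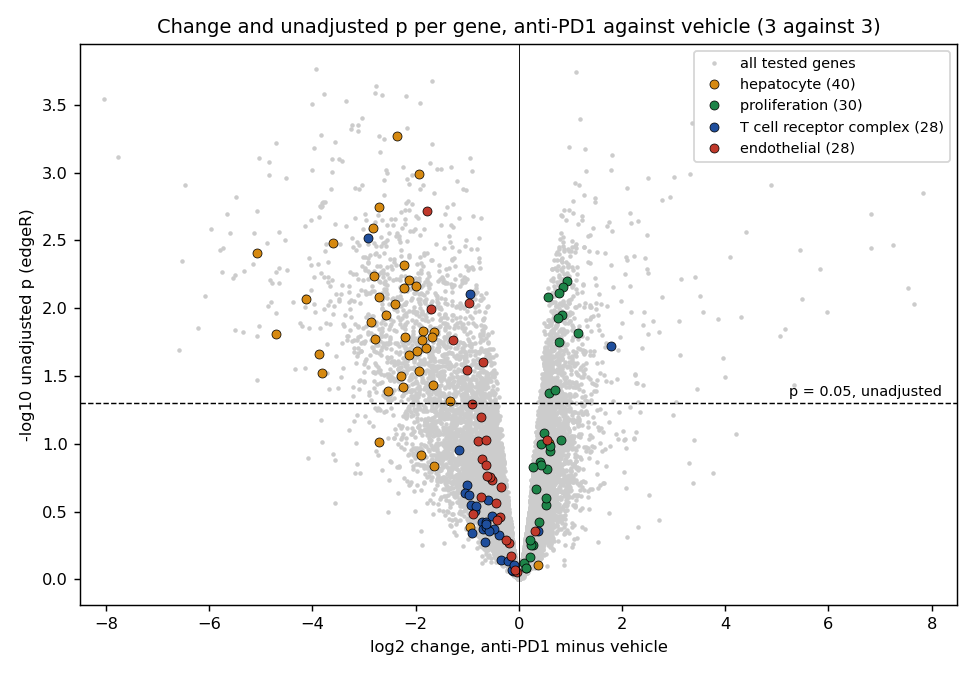
Each point is 1 of 16615 genes, with the log2 change of anti-PD1 minus vehicle on the x axis and the -log10 of edgeR's unadjusted p on the y axis; colored points are members of 4 gene lists and the dashed line marks an unadjusted p of 0.05. Of the 40 hepatocyte genes 38 lie left of 0, all 30 proliferation genes lie right of 0, and most T cell receptor complex genes lie left of 0 below the line.

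Most genes of normal liver were lower with anti-PD1 at an unadjusted p under 0.05. Of 40 tested hepatocyte genes, which encode plasma proteins and enzymes of liver metabolism, 34 were lower with anti-PD1 at an unadjusted p under 0.05 and 0 were higher, and 36 did not overlap downward and 1 upward. Their median log2 change was -2.23, against -0.06 over all tested genes. Itih3, an inter-alpha-trypsin inhibitor heavy chain secreted by the liver, was at 315, 241 and 396 CPM in vehicle tumors and 32.8, 69.1 and 83.6 CPM in anti-PD1 tumors (log2 change -2.36 ± 0.50 SE, unadjusted p = 0.00054). Trf, which encodes the iron carrier transferrin, was at 520, 301 and 411 CPM against 78.5, 108 and 136 CPM (-1.93 ± 0.44). Every anti-PD1 library was below every vehicle library for both genes. Hnf4a, a transcription factor of hepatocyte identity, was at 41.4, 15.1 and 43.9 CPM against 6.11, 10.2 and 10.9 CPM. Alb, which encodes albumin, was at 5920, 5360 and 6100 CPM against 280, 690 and 1490 CPM (-2.82 ± 0.73), and, like Hnf4a, is named here for its role after its values were seen. The members with a positive change, also named after their values were seen, were Ass1, a urea cycle enzyme (0.59 ± 0.33), and Mup3, a major urinary protein from a family of near-identical genes whose read assignment is uncertain (0.37 ± 1.37). The tumors were sampled as bulk tissue, so fewer cells of a type and less RNA per cell cannot be told apart.

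The list score, the mean log2 CPM over a list's genes in a library, was 7.58, 7.09 and 7.64 in vehicle tumors and 4.18, 5.72 and 5.31 in anti-PD1 tumors for hepatocyte genes. Scaled together with the 8 vehicle libraries of the 2 other experiments of the series, whose scores ran from -0.17 to 7.4, the anti-PD1 scores of 4.23 to 5.77 fell inside that range. From lowest to highest, the hepatocyte score thus varied across the vehicle tumors of the 2 other experiments by more than the group means differed here. Among the vehicle tumors of this experiment it ran only from 7.09 to 7.64. When 1 library was left out at a time, 16 to 32 of the 40 genes were lower at an unadjusted p under 0.05, with 16 when anti-PD1 replicate 1 was left out and the median then -1.92. In a fit that holds the hepatocyte score as a covariate, genes at an unadjusted p under 0.05 numbered 1208 (553 higher and 655 lower) in place of 2269. Since the score itself separates the groups completely, its part in the other differences cannot be told apart from that of treatment, and values from this fit are given below as a description.

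The promoter of Alb is shown because members of the list were lower together and because it holds 1 arm of the site of HNF1, a hepatocyte transcription factor. The 250 bases before the start (chr5:90460620-90460869, plus strand, RefSeq, GRCm38.p6) are printed 5′ to 3′ with that arm, GTTAAT, in capitals.
Alb: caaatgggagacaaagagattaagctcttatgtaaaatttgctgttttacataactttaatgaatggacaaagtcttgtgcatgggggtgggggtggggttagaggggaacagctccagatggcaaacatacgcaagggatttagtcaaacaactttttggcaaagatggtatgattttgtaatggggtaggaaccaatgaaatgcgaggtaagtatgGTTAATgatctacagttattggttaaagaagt
Searched on both strands, the letters GTTAAT were in the promoters of 10 of 31 hepatocyte genes with a promoter entry (32.3%) and of 2023 of 27018 genes in all (7.49%). The exact palindrome, GTTAAT and ATTAAC with 1 base between them, was in none of the 31 and in 3 of all genes. Sites whose second arm departs from these letters were not searched.

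Part of the genes of resident liver macrophages and sinusoids were lower too. Of 20 tested members of the Kupffer cell and liver sinusoid list, 11 were lower with anti-PD1 and 0 higher at an unadjusted p under 0.05, 10 did not overlap downward, and the median log2 change was -1.96. Vsig4, a complement receptor of Kupffer cells, was at 15.9, 26.5 and 44.4 CPM in vehicle tumors and 0.437, 1.07 and 4.63 CPM in anti-PD1 tumors (-3.82 ± 0.93, unadjusted p = 0.00167). Marco, a scavenger receptor, was counted 38, 39 and 596 times in vehicle tumors and 0, 1 and 1 times in anti-PD1 tumors. Its summed counts relative to library totals gave an anti-PD1 to vehicle ratio of 0.00315 (exact 95% interval 0.00038 to 0.0114, which covers counting error only), and 596 of the 673 vehicle counts came from replicate 3. Lyve1, a hyaluronan receptor of sinusoidal and lymphatic endothelium and of some macrophages, was at 37.4, 74.7 and 118 CPM against 3.15, 5.43 and 14 CPM (-3.35 ± 0.87). All 3 genes separated the groups completely, and vehicle replicate 3 was the highest library for each. Without vehicle replicate 3, 6 of the 20 genes were lower at an unadjusted p under 0.05, and without vehicle replicate 1 also 6. With the hepatocyte score as a covariate, 1 gene was lower and the median was -0.6.

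Mesothelial genes, markers of the lining of the liver surface, were lower in 8 of 10 cases with a median log2 change of -3.54. Upk3b, a uroplakin expressed by mesothelium, was at 5.48, 2.28 and 48.6 CPM against 0.0971, 0.242 and 1.54 CPM. Gpm6a, a membrane glycoprotein found in mesothelium and neurons, was at 3.66, 2.08 and 18.2 CPM against 0.485, 0.339 and 1.74 CPM. Neither gene overlapped between groups, but without vehicle replicate 3 their log2 changes were -2.62 and -1.75 in place of -4.89 and -3.22, and the list median was -1.63 with 6 genes lower. Erythrocyte genes were lower in 6 of 11 cases (median -2.49, with -1.45 without vehicle replicate 3 and -3.76 without anti-PD1 replicate 3), with the hemoglobin gene Hbb-bs, one of a pair of near-identical beta globin genes, at 6.94, 8.36 and 8.77 log2 CPM against 4.47, 4.55 and 6.81 log2 CPM and Alas2, the heme synthesis enzyme of red cells, at -2.77 ± 1.03 (-1.64 without vehicle replicate 3). Without vehicle replicate 3, without anti-PD1 replicate 1 or without anti-PD1 replicate 2 the number of lower erythrocyte genes was 1, 0 and 0. Platelet genes were lower in 4 of 7 cases and higher in 1, with Selp, the adhesion receptor P-selectin of platelets and endothelium, at 4.53, 3.04 and 13.6 CPM against 0.825, 1.45 and 0.964 CPM, and Pf4, platelet factor 4, at -2.21 ± 0.77 (-0.86 without vehicle replicate 3). The platelet median of -2.09 was -0.24, with 2 lower, when vehicle replicate 3 was left out, and -2.62 when anti-PD1 replicate 3 was left out.

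Endothelial genes had mostly negative changes of smaller size. Of 28 tested genes, 6 were lower and 0 higher at an unadjusted p under 0.05, 26 had a negative change, 11 did not overlap downward, and the median was -0.62. Scores were 4.37, 4.35 and 4.26 in vehicle tumors and 3.69, 3.76 and 3.78 in anti-PD1 tumors, a gap wider than the spread within either group. Scaled with the whole series, the anti-PD1 scores (3.74 to 3.82) also lay below all 8 vehicle libraries of the other experiments (4.19 to 5.15), although that comparison crosses experiments and was not tested. Ptprb, the phosphatase VE-PTP of endothelium, was at 26.1, 25.2 and 10.6 CPM against 5.53, 5.43 and 6.85 CPM (-1.79 ± 0.45, unadjusted p = 0.00191). Kdr, which encodes VEGFR2, was at 26.6, 16.2 and 29.7 CPM against 9.61, 14.7 and 13 CPM (-0.96 ± 0.31). No anti-PD1 library reached the lowest vehicle library for either gene. Not all vessel genes followed: Plvap, a diaphragm protein of fenestrated capillaries, had a log2 change of -0.04 ± 0.29, and Cd34, a marker shared with other cell types, was at 464, 459 and 447 CPM with anti-PD1 against 306, 425 and 213 CPM (0.54 ± 0.29). Both were named after their values were seen. In the fit holding the hepatocyte score the endothelial median was -0.57, and 1 of the 28 genes was lower at an unadjusted p under 0.05.

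**Figure D2:**
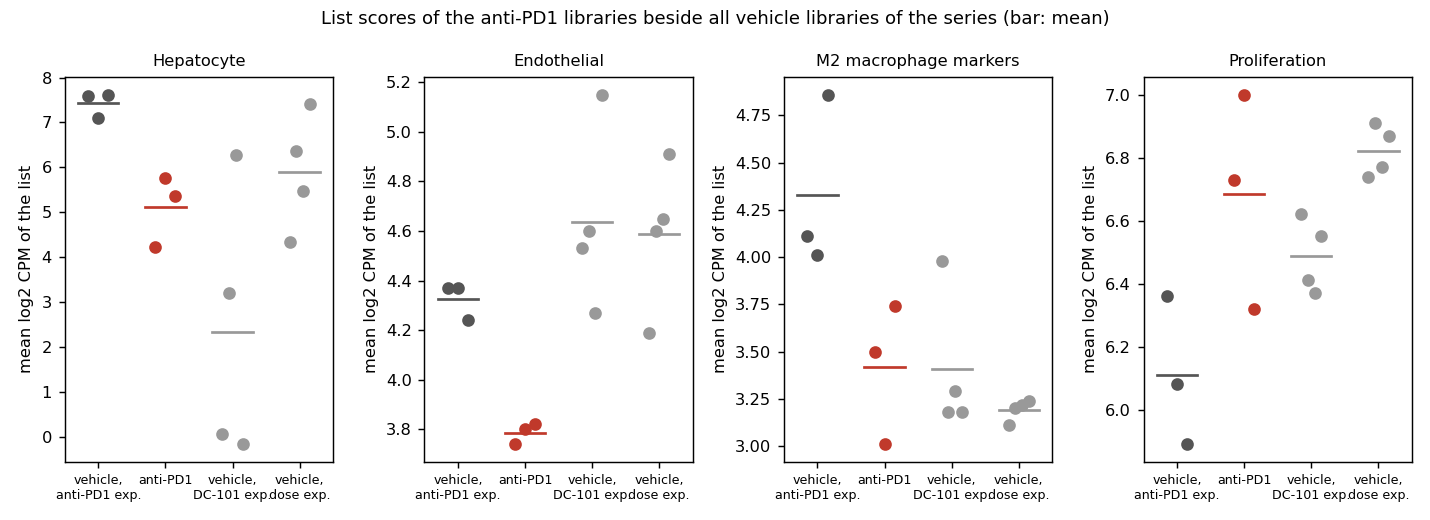
List scores (mean log2 CPM, y axis; all libraries scaled together) of the 3 anti-PD1 libraries beside the vehicle libraries of the same experiment (n = 3) and of the 2 other experiments (n = 4 each), with bars at the mean. Anti-PD1 libraries are below all 11 vehicle libraries for endothelial genes (highest 3.82 against lowest 4.19), whereas their hepatocyte, M2 macrophage and proliferation scores overlap those of vehicle libraries in the other experiments. Vehicle libraries of the same experiment lie above those of the others for M2 genes and below them for proliferation genes.

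The antibody's target and the T cell compartment were examined by a panel of 16 genes, of which 15 were tested and Pdcd1lg2 was too low. Changes were negative for 14, an unadjusted p under 0.05 was reached by 3, and none passed an adjusted p of 0.05 in edgeR, limma-voom or DESeq2. Pdcd1 itself was at 7.58, 5.78 and 2.23 CPM in vehicle tumors and 2.91, 2.08 and 4.29 CPM in anti-PD1 tumors (-0.75 ± 0.57, adjusted p = 0.596 in edgeR, and -0.39 without vehicle replicate 1). The groups overlapped, and the transcript does not report whether the antibody occupied the protein. Cd274 was at 23.9, 8.12 and 19.6 CPM against 1.84, 2.23 and 13.8 CPM (-1.53 ± 0.81, and -3.07 without anti-PD1 replicate 3), so that anti-PD1 replicates 1 and 2 were low and replicate 3 was within the vehicle range. The cytolytic genes Prf1, which encodes perforin, and Gzmb, which encodes granzyme B, had log2 changes of -2.48 ± 0.92 (unadjusted p = 0.0201) and -1.53 ± 0.69 (0.048). Prf1 was at 5.52, 3.65 and 0.846 CPM in vehicle tumors and 0.0971, 0.242 and 1.45 CPM in anti-PD1 tumors. Tox, a transcription factor of chronically stimulated T cells, was at 3.29, 2.03 and 0.846 CPM against 0.922, 0.145 and 0.723 CPM (-1.78 ± 0.76, unadjusted p = 0.0388). In each of these 3 genes vehicle replicate 3 overlapped the anti-PD1 libraries, and without vehicle replicate 1 the changes of Prf1, Gzmb and Tox were -1.92, -0.85 and -1.28. Without anti-PD1 replicate 3 that of Prf1 was -4.25. Foxp3, which defines regulatory T cells, was the single panel gene without overlap, but it was counted 10, 2 and 7 times against 2, 2 and 1 times, so the separation rests on the scaling of equal counts. The ratio of its summed counts was 0.279 (exact 95% interval 0.0813 to 0.771).

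The direction of the T cell receptor complex list turned without vehicle replicate 1, while that of the cytotoxic, regulatory T cell and checkpoint receptor lists did not. Cd8a, a coreceptor of cytotoxic T cells, was at 14.7, 3.65 and 0.712 CPM in vehicle tumors, a range that enclosed the anti-PD1 values of 4.22, 1.84 and 4.43 CPM. Cd3e, a chain of the T cell receptor complex, was at 5.06, 1.12 and 0.935 CPM against 1.65, 0.872 and 1.83 CPM. Across 28 tested genes of the T cell receptor complex and coreceptors, 26 had a negative change (median -0.64), 2 were lower and 1 higher at an unadjusted p under 0.05. Without vehicle replicate 1 the median was 0.45, and the log2 changes of Cd3e, Cd4 and Cd8a became 0.48, 0.19 and 0.66. The cytotoxic lymphocyte and NK list had 8 of 25 genes lower and none separated (median -1.48). Without vehicle replicate 1, 1 was lower, 2 were higher and the median was -0.41. Ncr1, an activating receptor of natural killer cells, was at 60, 16 and 5 counts in vehicle tumors and 5, 2 and 5 counts in anti-PD1 tumors (log2 change -2.57 ± 0.79, and -1.4 without vehicle replicate 1), and Fasl, the death ligand of cytotoxic lymphocytes, had a log2 change of -2.42 ± 0.78 from 25, 15 and 2 counts against 4, 1 and 2 counts.

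**Figure D3:**
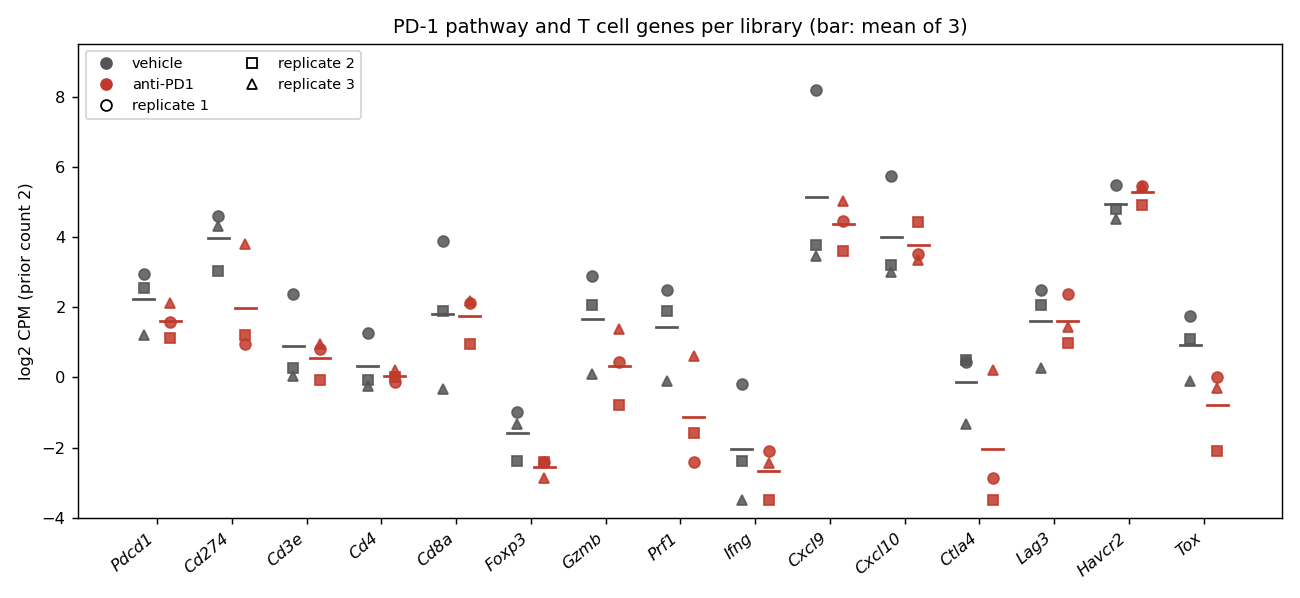
Log2 CPM (y axis, prior count 2) of 15 panel genes (x axis) in the 3 vehicle (grey) and 3 anti-PD1 (red) libraries, with symbols for the replicate and bars at the mean. Vehicle replicate 1 is the highest library for Cd3e, Cd8a, Cxcl9 and Cxcl10, and only Foxp3 separates the groups completely.

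An unadjusted p under 0.05 was reached by 3 of 20 checkpoint receptors and 2 of 13 ligands, against 13.7% of all tested genes. Among 20 tested checkpoint and costimulatory receptors 3 were lower and 17 had a negative change (median -0.94), and without vehicle replicate 1 the median was -0.25 with 1 lower. Btla, an inhibitory receptor of lymphocytes, was at 2.02, 0.659 and 0.935 CPM against 0.582, 0.339 and 0.434 CPM (-1.41 ± 0.48, and -0.83 without vehicle replicate 1). Ctla4, an inhibitory receptor of activated and regulatory T cells, reached at most 1.32 CPM in any of the 6 libraries (-1.37 ± 1.11, with -5.03 without anti-PD1 replicate 3 and -0.79 without anti-PD1 replicate 2). Lag3, an inhibitory receptor that binds MHC class II, had a log2 change of -0.14 ± 0.58 (0.29 without vehicle replicate 1). Havcr2, which encodes TIM-3 and is also carried by macrophages, had one of 0.31 ± 0.34 (0.11 without vehicle replicate 3 and 0.61 without vehicle replicate 1). Among 13 ligands 2 were lower (median -0.49, and -0.02 without vehicle replicate 3), both of them B7 family or adhesion molecules. Vtcn1, the B7 family ligand B7-H4, did not overlap between groups (-2.26 ± 0.59, unadjusted p = 0.00255), and Ceacam1, an adhesion molecule also made by liver epithelium, ranged from 1.78 to 33.3 CPM within the vehicle group (-2.24 ± 0.85, and -0.5 without vehicle replicate 3). Of 23 genes of PD1 signaling and T cell activation, 1 was lower and 1 higher (median -0.04, and 0.19 without vehicle replicate 1). The higher one was Csk, a kinase that restrains Src family kinases and is expressed in most cells, at 6.84, 6.66 and 7.04 log2 CPM in vehicle and 7.64, 7.64 and 7.19 log2 CPM in anti-PD1 tumors (0.65 ± 0.20), and the lower one was Pik3r1, a regulatory subunit of PI3 kinase (-0.91 ± 0.39). Of 12 regulatory T cell genes 0 reached an unadjusted p under 0.05 (median -0.80, and -0.29 without vehicle replicate 1). Their member Lrrc32, which encodes the TGF-beta docking protein GARP and is also made by endothelium, had a log2 change of -1.52 ± 0.74 (-0.93 without vehicle replicate 3).

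The lower interferon gamma response genes depended on vehicle replicate 1. Of 27 tested, 8 were lower and 1 higher at an unadjusted p under 0.05, 4 did not overlap downward, and the median log2 change was -1.33 (-1.73 without vehicle replicate 3). Gbp10, an interferon-induced guanylate-binding protein of a multigene family, was counted 117, 11 and 14 times in vehicle tumors and 3, 4 and 7 times in anti-PD1 tumors (-3.12 ± 0.97, and -1.39 without vehicle replicate 1). Cxcl9 was at 291, 13.6 and 11 CPM against 21.8, 12.1 and 32.8 CPM (-2.24 ± 1.19), and Cxcl10 at 53.9, 9.18 and 7.93 CPM against 11.4, 21.5 and 10.1 CPM. For both chemokines the single high value was vehicle replicate 1. Without that library 1 gene was lower and 2 were higher, the list median was 0.15, and the changes of Cxcl9, Cxcl10 and Ifng were 0.84, 0.72 and 0.66, with Ifng at only 21 counts over 3 vehicle and 5 counts over 3 anti-PD1 libraries. Ifngr2, the receptor subunit that senses interferon gamma, went the other way at 6.31, 5.77 and 6.19 log2 CPM against 7.01, 7.01 and 6.66 log2 CPM (0.79 ± 0.21, unadjusted p = 0.00306), and it did not overlap. Of 34 type I interferon response genes 2 were lower (median -0.15, and 0.26 without vehicle replicate 1), Ifi205 and Slfn4, with log2 changes of -1.39 ± 0.47 and -2.40 ± 0.87. Slfn4 had its highest value, 78.5 CPM, in vehicle replicate 3, and its change was -0.16 without that library.

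The promoter of Cxcl10 is shown because the gene is a readout of interferon in these tumors and because GAAA repeated after 2 bases of any kind is part of the element bound by interferon regulatory factors. The 250 bases before the start (chr5:92348890-92349139, minus strand, RefSeq, GRCm38.p6) carry the match in capitals.
Cxcl10: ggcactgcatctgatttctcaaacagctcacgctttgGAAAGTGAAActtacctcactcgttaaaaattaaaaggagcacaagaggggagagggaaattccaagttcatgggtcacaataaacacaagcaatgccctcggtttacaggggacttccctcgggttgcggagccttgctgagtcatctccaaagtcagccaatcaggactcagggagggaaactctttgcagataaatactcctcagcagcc
This repeat was found on either strand in 11 of 19 interferon gamma response genes with a promoter entry (57.9%) and in 936 of 27018 genes in all (3.46%).

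Of the antigen presentation genes, 1 of each class was higher at an unadjusted p under 0.05, where 4.88% of all tested genes were higher. The MHC class I list had 1 of 24 genes higher and 0 lower (median 0.02, 0.49 without vehicle replicate 1 and -0.24 without vehicle replicate 3). The class II list had 1 of 14 higher and 0 lower (median -0.41, 1.05 without vehicle replicate 1 and -0.87 without vehicle replicate 2). The class I gene was Calr, the chaperone calreticulin, at 1170, 862 and 1340 CPM against 1870, 2220 and 1530 CPM (0.74 ± 0.26), and the class II gene was Ifi30, a lysosomal thiol reductase, at 147, 145 and 133 CPM against 293, 236 and 193 CPM (0.76 ± 0.23). Neither gene overlapped between groups. Ciita, the class II transactivator, spanned 1.32 to 25 CPM among vehicle tumors (-1 ± 1.05, and 0.56 without vehicle replicate 1), and H2-T24, a nonclassical class I gene with close relatives, had a log2 change of -1.07 ± 0.50 (-0.63 without vehicle replicate 1). In the T cell attracting chemokine and receptor list, 1 of 19 genes was lower (median -0.26, and 0.47 without vehicle replicate 1). That gene was Cxcl13, the chemokine that draws B cells, at 34.4, 30 and 3.92 CPM against 1.31, 1.55 and 2.12 CPM (-3.77 ± 0.72, unadjusted p = 0.000262). The dendritic cell list had 3 of 23 lower (median -0.14, and 0.26 without vehicle replicate 1), among them Clec9a, the receptor of cross-presenting dendritic cells, at 51, 4 and 28 counts against 5, 0 and 1 counts.

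Among genes of tumor macrophages the members at an unadjusted p under 0.05 were all lower, although most members had a positive change. Of 28 genes of tumor associated macrophages and monocytes, 4 were lower and 0 higher at an unadjusted p under 0.05, 18 had a positive change and the median was 0.36 (0.14 without vehicle replicate 3). The 4 lower members were Lyve1, described above, Mertk, and, named after their values were seen, Cd163, a scavenger receptor of macrophages (-4.03 ± 1.15), and Ly6c2, a marker of inflammatory monocytes (-1.49 ± 0.59). Csf1r, the receptor for the macrophage growth factor, was at 475, 324 and 347 CPM in vehicle tumors and 754, 528 and 581 CPM in anti-PD1 tumors (0.70 ± 0.35, unadjusted p = 0.0695), and was named after its values were seen. Its groups did not overlap, upward. Mertk, a receptor for the uptake of dying cells, was at 32.6, 53.2 and 41 CPM against 16.5, 10.7 and 25.6 CPM (-1.26 ± 0.35). M2 macrophage markers were lower in 6 of 19 cases, with 4 not overlapping (median -0.43, with -0.29 without anti-PD1 replicate 2 and -0.69 without anti-PD1 replicate 3), and their scores were 4.4, 4.31 and 5.19 against 3.77, 3.28 and 3.99. Chil3, a chitinase-like protein of M2 macrophages and lung, was at 9.72, 17.6 and 17.3 CPM against 0.582, 0.145 and 2.02 CPM (-4.01 ± 0.91, unadjusted p = 0.000954). Clec10a, a galactose lectin of macrophages and dendritic cells, was lower by 2.78 ± 0.71 on the log2 scale. For Chil3 the groups did not overlap. Vehicle tumors of the other experiments had M2 scores of 3.11 to 3.98, inside which 2 of the 3 anti-PD1 libraries (3.01, 3.5 and 3.74) lay. On the same scale the vehicle tumors of this experiment were at 4.01 to 4.86, above all 8 of those. The same held for Chil3, at 3.29 to 4.17 against -2.58 to 1.8 log2 CPM. M1 macrophage markers had 2 of 20 lower and 1 higher (median -0.28, 0.24 without vehicle replicate 1 and -0.64 without vehicle replicate 2), with Cd38, an ectoenzyme of activated leukocytes, at -1.2 ± 0.41 and Il23a, a cytokine subunit, at 15, 6 and 6 counts against 17, 28 and 14 counts.

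Of 3 lists that the study curated from the literature, 2 describe macrophage states. In genes higher in M1 than in M2, 12 of 48 were lower and 0 higher (median -0.40), and in genes higher in M2 than in M1, 5 of 30 were lower and 5 higher (median 0, and 0.47 without vehicle replicate 3). The member of smallest p beside Marco was Saa3, an acute phase protein, at 57.6, 480 and 748 CPM against 6.6, 3.63 and 28.8 CPM (-5.04 ± 1.11, unadjusted p = 0.00078). Without vehicle replicate 1 the median of the first list was 0.10, with 8 lower and 2 higher. The third, an IL-6 signature, had 9 of 15 genes lower (median -1.40, and -0.82 with 6 lower without vehicle replicate 3). Scaled with the whole series, its scores were 5.78 to 6.45 in vehicle tumors of this experiment and 4.64 to 5.39 in anti-PD1 tumors. Those of the other 8 vehicle tumors were 3.17 to 5.47. Its leading members Serpina3m and Serpina3n, protease inhibitors of the acute phase response made mainly by liver and belonging to a family of close relatives, had log2 changes of -2.56 ± 0.66 and -2.60 ± 0.70, and with the hepatocyte score as a covariate 2 members were lower and 2 higher.

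Neutrophil genes were lower in 11 of 26 cases and higher in 1 (median -1.29, and -0.58 without vehicle replicate 3). Camp, the granule peptide cathelicidin, was at 4.82, 1.32 and 0.802 CPM in vehicle tumors and 0.0971, 0.242 and 0.289 CPM in anti-PD1 tumors (-3.43 ± 1.04). Clec4d, a lectin receptor of neutrophils and monocytes, was at 22.7, 84.1 and 94.8 CPM against 11.4, 8.67 and 34.8 CPM, with overlap. Scores were 3, 1.89 and 4.26 in vehicle tumors and 1.74, 2 and 2.4 in anti-PD1 tumors, so that vehicle replicate 2 lay within the anti-PD1 range. Lower genes numbered 3 without vehicle replicate 3, 2 without anti-PD1 replicate 1 and 3 without anti-PD1 replicate 2, and 0 with the hepatocyte score as a covariate.

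Cell cycle genes were the most uniform group in the other direction. All 30 tested proliferation genes had a positive change, 10 were higher and 0 lower at an unadjusted p under 0.05, 6 did not overlap upward, and the median log2 change was 0.53. Aurka, a kinase of the mitotic spindle, was at 42.8, 45.1 and 30.3 CPM in vehicle tumors and 74.7, 96.6 and 55.5 CPM in anti-PD1 tumors (0.94 ± 0.28, unadjusted p = 0.00625). Ccna2, the cyclin of S phase and G2, was at 7.23, 6.95 and 6.66 log2 CPM against 7.79, 8.21 and 7.28 log2 CPM (0.85 ± 0.26). Both genes separated the groups. Mki67, the histological proliferation marker, was named after its values were seen and did not share the pattern, at 238, 75.2 and 253 CPM against 179, 284 and 156 CPM (0.13 ± 0.57). Scores were 6.36, 6.06 and 5.91 in vehicle tumors and 6.68, 6.96 and 6.28 in anti-PD1 tumors, so anti-PD1 replicate 3 fell below vehicle replicate 1. Scaled with the whole series the anti-PD1 scores were 6.32 to 7, and those of vehicle tumors in the other experiments were 6.37 to 6.91. Vehicle tumors of this experiment, at 5.89 to 6.36, lay below all 8 of those. The number of higher genes was 5 without anti-PD1 replicate 2 and 7 with the hepatocyte score as a covariate, where the median was 0.69.

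The promoter of Aurka is shown for its CCAAT boxes, which bind the factor NF-Y and are common in cell cycle promoters. The 250 bases before the start (chr2:172370571-172370820, minus strand, RefSeq, GRCm38.p6) have 2 matches in capitals.
Aurka: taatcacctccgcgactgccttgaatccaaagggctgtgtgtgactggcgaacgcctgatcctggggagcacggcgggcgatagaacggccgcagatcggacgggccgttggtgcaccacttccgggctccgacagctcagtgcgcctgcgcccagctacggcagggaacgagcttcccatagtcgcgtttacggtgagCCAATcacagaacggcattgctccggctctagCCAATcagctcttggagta
The letters CCAAT were found on either strand in 19 of 23 proliferation genes with a promoter entry (82.6%) and in 10132 of 27018 genes in all (37.5%), and TTTGAA, the cell cycle homology region, in 6 of 23 (26.1%) and 18.3% of all.

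Part of the genes of protein folding stress and amino acid supply were higher at an unadjusted p under 0.05. Of 23 tested genes of the unfolded protein and integrated stress response, 9 were higher and 1 lower at an unadjusted p under 0.05, 6 did not overlap upward, and the median log2 change was 0.69. Asns, asparagine synthetase and a target of the factor ATF4, was at 61.8, 52.9 and 49 CPM in vehicle tumors and 123, 251 and 81.4 CPM in anti-PD1 tumors (1.47 ± 0.36, unadjusted p = 0.00153). Creld2, a secreted protein of the endoplasmic reticulum, was at 44, 32.9 and 47 CPM against 82.9, 124 and 43.1 CPM (1.01 ± 0.32). Asns separated the groups, while Creld2 in anti-PD1 replicate 3 lay within the vehicle range. The chaperone Hspa5, named after its values were seen, was at 954, 916 and 1010 CPM against 1620, 2000 and 1350 CPM (0.78 ± 0.25). The lower gene, by the same choice, was Cth, an enzyme of cysteine synthesis that is abundant in hepatocytes (-3.98 ± 1.27). Anti-PD1 replicate 2 had the highest score, 6.54 against 5.99 and 5.98 in the other two and 5.79, 5.76 and 6.12 in vehicle tumors, and without it 2 genes were higher and 1 lower, with Asns at 0.91 and Creld2 at 0.61. With the hepatocyte score as a covariate 7 were higher and 0 lower.

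The promoters of these 2 named genes are shown because each holds a motif tied to one arm of the response. That of Creld2 (chr15:88819396-88819645, plus strand) holds the ER stress element, CCAAT and CCACG with 9 bases between them, read on the opposite strand, and that of Asns (chr6:7693210-7693459, minus strand) the amino acid response element TGATGNAA. Both are the 250 bases before the start in RefSeq (GRCm38.p6), with the match in capitals.
Creld2: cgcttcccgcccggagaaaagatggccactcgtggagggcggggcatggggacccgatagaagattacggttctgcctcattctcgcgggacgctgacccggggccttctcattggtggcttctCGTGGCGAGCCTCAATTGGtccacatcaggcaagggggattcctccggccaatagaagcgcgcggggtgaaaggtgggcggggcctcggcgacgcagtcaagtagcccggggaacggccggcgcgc
Asns: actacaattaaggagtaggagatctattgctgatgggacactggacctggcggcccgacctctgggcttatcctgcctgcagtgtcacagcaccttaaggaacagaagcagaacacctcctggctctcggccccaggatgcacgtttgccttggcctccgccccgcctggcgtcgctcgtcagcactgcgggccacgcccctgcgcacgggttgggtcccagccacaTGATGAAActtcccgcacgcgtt
The ER stress element was in 3 of 20 list members with a promoter entry (15%) and 35 of 27018 genes (0.13%). TGATGNAA was in 5 of the 20 (25%) and 3.9% of all genes. Matches on both strands were counted for each motif in the promoters described here, and the CCAAT box overlaps the ER stress element.

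**Figure D4:**
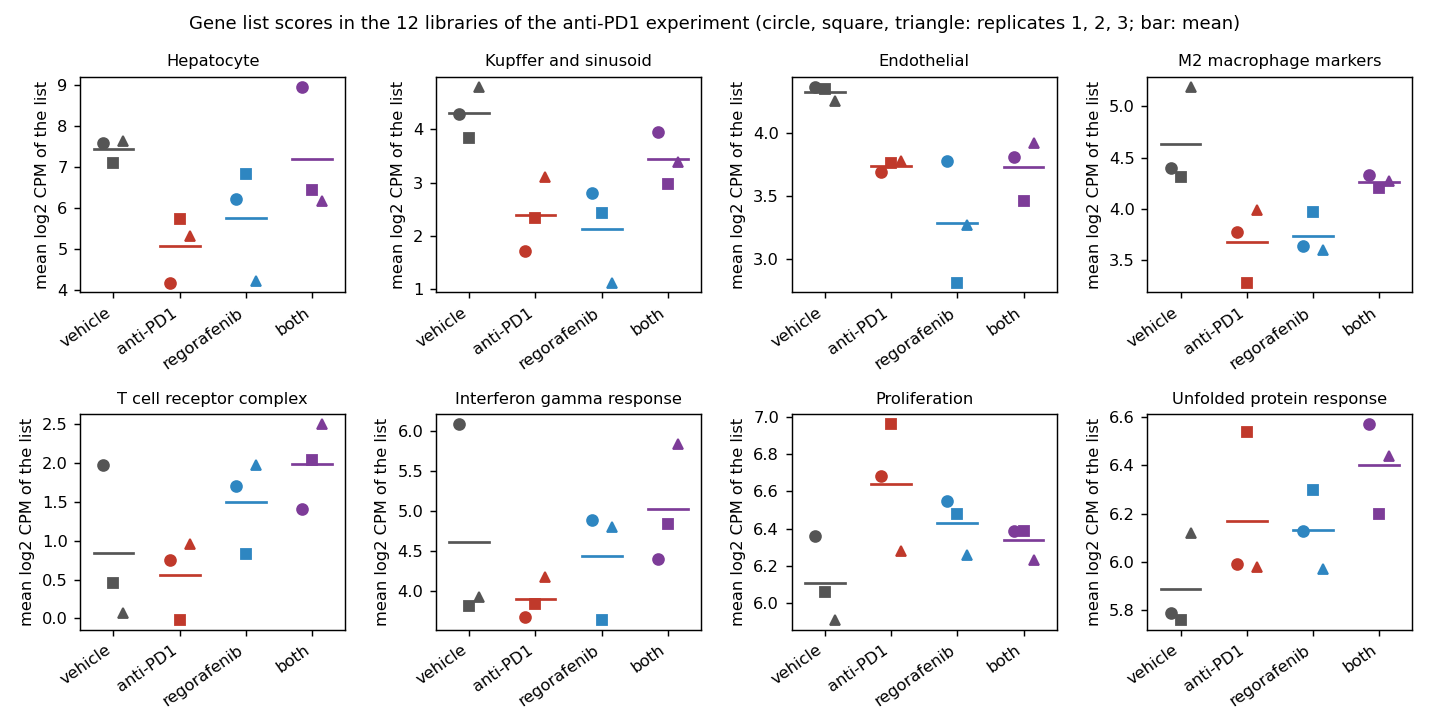
Scores (mean log2 CPM of a list's genes, y axis) of 8 gene lists in the 12 libraries of the experiment, by group, with symbols for the replicate and bars at the mean. Vehicle and anti-PD1 libraries do not overlap for hepatocyte, Kupffer, endothelial and M2 genes, whereas for T cell and interferon gamma response genes vehicle replicate 1 stands above the other 5 libraries.

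The genes with the smallest p among those of at least moderate level (mean log2 CPM of 1) that separated the groups were mostly not in these lists. All 16, 8 in each direction, had an adjusted p of 0.249 in edgeR and passed in DESeq2. A2m, a protease inhibitor of plasma, had the smallest p of the lower genes and was at 5.35, 17.2 and 21 CPM in vehicle tumors and 0.582, 0.388 and 1.88 CPM in anti-PD1 tumors (-3.93 ± 0.72, unadjusted p = 0.000173). Epas1, which encodes the hypoxia inducible factor HIF-2 alpha and is abundant in endothelium, was at 41.5, 26.4 and 44.7 CPM against 9.22, 10.5 and 15.5 CPM (-1.68 ± 0.31, unadjusted p = 0.000209). On the log2 CPM scale of the whole series Epas1 was at 3.27 to 4 in anti-PD1 tumors and 4.13 to 5.23 in the 8 other vehicle tumors. The remaining lower genes were Cxcl13, Cers4 (a ceramide synthase), Cavin2 (a caveolar coat protein of endothelium), Ildr2, Ctsk (the matrix protease cathepsin K) and Crispld2, with log2 changes between -3.77 and -2.16 (Ildr2 at -3.12, and -2.03 without vehicle replicate 3). Of the 8 lower genes, 3 (Epas1, Cers4 and Ildr2) lay below all 8 vehicle libraries of the other experiments, and 5 overlapped them. For Cavin2 the vehicle tumors of this experiment (4.31 to 5.35 log2 CPM) lay above those 8 libraries (2.45 to 4.15). For the other lower genes the vehicle ranges overlapped or met.

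Among the 8 higher genes, H2afx, the histone variant of DNA damage signaling, was at 62.9, 53.8 and 45.5 CPM against 136, 151 and 83.2 CPM (1.19 ± 0.24, unadjusted p = 0.000403). Ube2c, a ubiquitin conjugating enzyme of mitotic exit, was at 84.5, 63.4 and 72.3 CPM against 179, 244 and 116 CPM (1.29 ± 0.28). Arhgap22, a GTPase activating protein for Rac, had the smallest p (1.10 ± 0.20, unadjusted p = 0.000182), at 55.1, 48.6 and 50.9 CPM against 118, 125 and 87.5 CPM. Anti-PD1 replicate 3 was the lowest anti-PD1 library for all 3. Tnnt2, cardiac troponin T, had the largest change, from 3.54, 7.96 and 6.15 CPM to 48.9, 40.3 and 10.5 CPM (2.5 ± 0.58). Ttll1 (a tubulin glutamylase), Tmem151b, Myl6b (a myosin light chain) and Thop1 (a peptidase that degrades cytosolic peptides) had log2 changes of 0.98 to 1.80. Only Myl6b of the 8 was above all 8 vehicle libraries of the other experiments (3.5 to 3.66 against 1.91 to 3.12 log2 CPM). For H2afx, Ube2c and Tmem151b the vehicle tumors of this experiment lay below all 8 of those libraries. Their ranges were 5.49 to 5.98 against 6.21 to 6.87, 6.01 to 6.4 against 6.45 to 7.14 and 0.62 to 1.49 against 1.91 to 2.89 log2 CPM. For the other higher genes the vehicle ranges overlapped or met.

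In the remaining lists, genes at an unadjusted p under 0.05 are counted beside a share of 13.7% over all tested genes. Hypoxia and glycolysis genes had 26 of 27 negative changes (median -0.71) but 0 at an unadjusted p under 0.05. The median was 0.18 without vehicle replicate 3 and -1.57 without anti-PD1 replicate 3. Bnip3, a mitophagy receptor induced by hypoxia, was at 247, 754 and 402 CPM against 58.9, 93.6 and 444 CPM, so anti-PD1 replicate 3 lay within the vehicle range. Its log2 change was -2.61 to -0.7 when 1 library was left out. Egln3, an oxygen sensing hydroxylase, was at 16.4, 7.96 and 85.2 CPM against 5.77, 4.07 and 22.6 CPM, with replicate 3 the highest in both groups. The log2 change of Egln3 was -1.76, with -0.17 without vehicle replicate 3 and -2.88 without anti-PD1 replicate 3. Immediate early and ERK feedback genes had 2 of 28 higher and 1 lower, with Ier2 at 1.12 ± 0.33 and the phosphatase Dusp6 at 0.83 ± 0.25. Their median was 0.07, with 0.77 and 5 higher without vehicle replicate 3 and -0.24 without anti-PD1 replicate 3. TNF and NF-kB targets had 3 of 27 lower and 1 higher (median -0.12, and 0.31 without vehicle replicate 3), the latter Traf1, a TNF receptor adaptor (0.97 ± 0.31), while the chemokine Cxcl2 was at 56.6 CPM in vehicle replicate 3 and at most 4.39 CPM in the other 5 libraries (-3.12 ± 1.17, and -0.61 without it). The TGF-beta list (median -0.18, and 0.17 without vehicle replicate 3) had 1 of 22 lower, the coreceptor Tgfbr3 (-1.18 ± 0.49), and 1 higher, Ltbp1, which tethers latent TGF-beta to matrix (0.83 ± 0.32). In the pericyte, fibroblast and matrix list the median was -0.46, and 0.2 without vehicle replicate 3. In it 2 of 28 were lower, Cthrc1 and Thy1, with log2 changes of -1.96 ± 0.77 (-0.58 without vehicle replicate 3) and -0.94 ± 0.29, and 1 was higher. B cell genes had 2 of 16 lower (median -0.88, and -0.3 with 0 lower without vehicle replicate 3), with Cd37 at -1.11 ± 0.49 and at -0.07 without that library. Plasma cell and immunoglobulin genes had 0 of 17 lower and 1 higher (median -0.87, and -0.1 without vehicle replicate 3), Xbp1, a factor of the unfolded protein response as well (0.63 ± 0.23), while Igkc did not reach an unadjusted p under 0.05 (-1.28 ± 0.63).

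Markers of other tissues that a dissected tumor could carry were examined next. The HCC and liver epithelial identity list had 5 of 22 lower and 1 higher (median -0.06, and 0.29 without vehicle replicate 3), with Foxa3, a liver transcription factor, at -1.89 ± 0.59 and Gpc3, an oncofetal proteoglycan, at 422 counts in vehicle replicate 3 and 65 and 24 in the other two, against 5 to 31 with anti-PD1 (-3.41 ± 1.16, and -1.45 without vehicle replicate 3). Pancreas and gut genes had 2 of 4 higher. Lgals4, a gut galectin, was counted 74, 47 and 104 times in vehicle tumors and 918, 194 and 73 times in anti-PD1 tumors, and Vil1, the brush border protein villin, 14, 3 and 2 times against 114, 22 and 15 times. Anti-PD1 replicate 1 was the highest library for both, and without it 0 of 4 were higher at an unadjusted p under 0.05. Scaled with the whole series, the pancreas and gut scores of anti-PD1 tumors (1.43 to 3.14) overlapped those of their own vehicle tumors (0.38 to 2.02) and lay above all 8 vehicle libraries of the other experiments (-0.58 to 1.04). Skin and squamous genes had 1 of 4 higher, Ly6d (2.60 ± 0.88, also highest in anti-PD1 replicate 1, at 98.7 CPM, and 1.62 without it), and 1 lower, Krt14, at 395 counts in vehicle replicate 3 (-4.2 ± 1.44, and -1.65 without it). Adipocyte genes were lower in 2 of 6 cases, the fatty acid carrier Fabp4 (-1.14 ± 0.43, and -0.66 without vehicle replicate 2, where it was at 152 CPM) and the lipid droplet protein Plin4 (-2.16 ± 0.86). Muscle, nerve and mast cell lists had 1 of 7, 0 of 9 and 0 of 9 genes higher and 1, 1 and 3 lower, with Neb (-2.22 ± 0.73, at 2 to 4 counts with anti-PD1), Scn7a (-1.84 ± 0.51), Ccr3 (-2.37 ± 0.77, and -1.42 without vehicle replicate 1) and Ear2 (-3.30 ± 1.02, at 0 to 5 counts with anti-PD1) among the lower, Actn3 (1.79 ± 0.75) the higher, and Tubb3 at 1.20 ± 0.64 (0.75 without anti-PD1 replicate 2). The Y-linked genes tested were 4, of which Eif2s3y and Ddx3y were lower at an unadjusted p under 0.05 and separated the groups. Eif2s3y, a translation factor subunit, was at 22.1, 21.2 and 27.9 CPM against 7.38, 9.5 and 11.6 CPM, and Ddx3y, an RNA helicase, at 25.4, 34.4 and 34.2 CPM against 14.1, 9.79 and 16 CPM. Scaled with the whole series, the Y-linked scores of anti-PD1 tumors (2.75 to 3.24) lay below those of all 11 vehicle libraries, at 3.67 to 4.15 in their own experiment and 3.28 to 3.63 in the others. In the fit holding the hepatocyte score the Y-linked median was -0.99 in place of -1.01. On top of regorafenib, in libraries independent of these, the Y-linked median was -0.88 and 3 of 4 genes were lower with anti-PD1 at an unadjusted p under 0.05, with scores of 3.41, 4.08 and 3.48 in regorafenib and 2.32, 3.35 and 2.29 in combination tumors. The part of liver tissue, of other tissue and of Y-linked content in the differences above was not tested beyond these values.

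The same antibody was also given on top of regorafenib, and that second comparison shares no library with the first. Whether the anti-PD1 change differed with regorafenib was tested by the interaction term over the 12 libraries. In edgeR 0 of 16615 genes passed an adjusted p of 0.05, 1794 (10.8%) had an unadjusted p under 0.05, and of these 1335 (8.03%) had a more positive anti-PD1 change with regorafenib and 459 (2.76%) a more negative one. limma-voom passed 0 and DESeq2 passed 534, 489 of them more positive. Within regorafenib-treated tumors alone, 390 genes (2.35%) were higher with anti-PD1 and 215 (1.29%) lower at an unadjusted p under 0.05. For 35 of the 40 hepatocyte genes the unadjusted interaction p was under 0.05. Their median anti-PD1 change was 1.63 with regorafenib and -2.23 without, and 18 were higher with the antibody in regorafenib-treated tumors. Hepatocyte scores overlapped between regorafenib (6.21, 6.84 and 4.22) and combination tumors (8.95, 6.43 and 6.18), with combination replicate 1 the highest and regorafenib replicate 3 the lowest. Itih3 was at 108, 58.5 and 52.7 CPM with regorafenib and 292, 114 and 100 CPM with both, and the combination's replicate 1 was its highest library. With the hepatocyte score as a covariate 985 genes had an unadjusted interaction p under 0.05, 512 more positive and 473 more negative.

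Among other lists the median anti-PD1 change was more positive with regorafenib for Kupffer, endothelial and interferon gamma response genes and more negative for proliferation genes. These differences between medians were not tested. Members at an unadjusted interaction p under 0.05 are counted below beside 10.8% of all tested genes, and none passed an adjusted p of 0.05 in edgeR. The Kupffer and sinusoid median was 1.18 with regorafenib and -1.96 without (14 of 20 genes at an unadjusted interaction p under 0.05), and the endothelial median 0.39 and -0.62 (7 of 28). Interferon gamma response genes had medians of 0.71 and -1.33 (9 of 27), the latter turning to 0.15 without vehicle replicate 1, and proliferation genes -0.13 and 0.53 (7 of 30). Prf1 was at 2, 0.599 and 1.03 CPM with regorafenib and 2.96, 2.42 and 5.53 CPM with both, an anti-PD1 change of 1.57 against -2.48 without regorafenib (interaction 4.05 ± 1.26, unadjusted p = 0.00807, adjusted p = 0.263 in edgeR). Every combination library was above every regorafenib library. The smallest interaction p values belonged to Itih5, another inter-alpha-trypsin inhibitor heavy chain, and Elane, neutrophil elastase. Itih5 was at 2.31, 2.23 and 1.51 CPM in vehicle, 0.631, 0.436 and 0.53 CPM in anti-PD1, 0.527, 0.381 and 0.673 CPM in regorafenib and 1.31, 0.984 and 1.22 CPM in combination tumors (interaction 3.05 ± 0.53, unadjusted p = 0.000107). Elane had 2 counts in each anti-PD1 library and 26, 10 and 11 counts in vehicle tumors, a ratio of summed counts of 0.135 (exact 95% interval 0.0472 to 0.317). At such counts its fitted change depends on the prior count (interaction 4.10 ± 0.72, unadjusted p = 0.000112). Both had an adjusted p of 0.244 in edgeR.

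**Figure D5:**
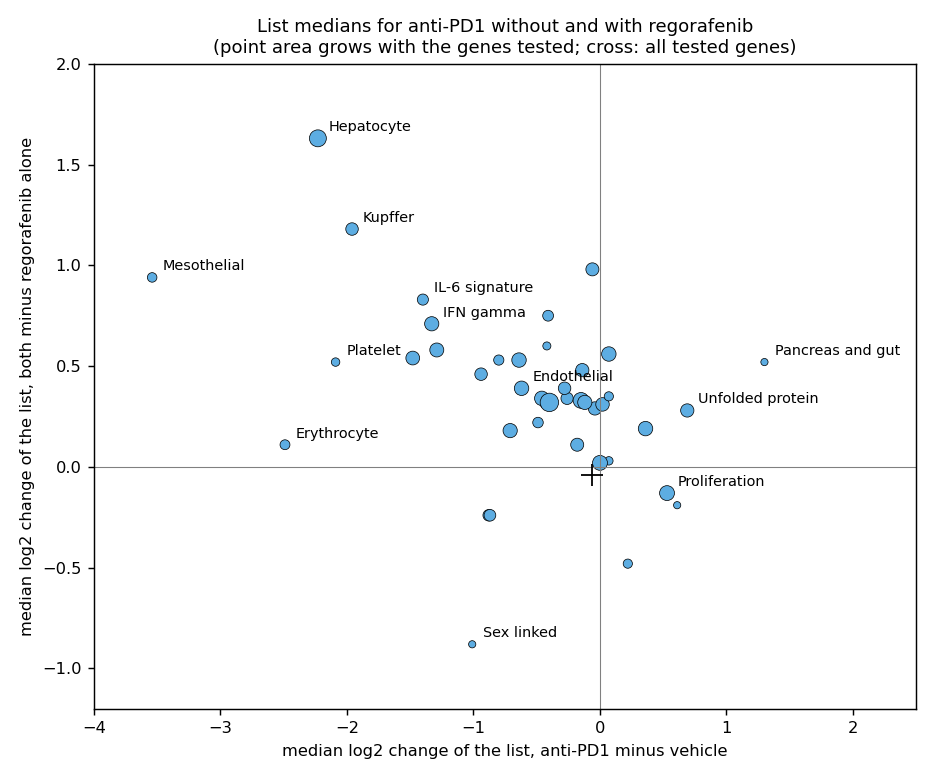
Each point is 1 of 42 gene lists, with the median log2 change of anti-PD1 minus vehicle on the x axis and of the combination minus regorafenib alone on the y axis; the cross is the median of all 16615 tested genes (-0.06 and -0.04). Hepatocyte (-2.23 and 1.63) and Kupffer genes (-1.96 and 1.18) lie in the upper left, and proliferation genes (0.53 and -0.13) in the lower right.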

How the data were processed

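RNA was extracted from orthotopic BNL-MEA tumors with the Qiagen AllPrep kit, and poly(A) libraries were made with the Illumina TruSeq Stranded mRNA kit. Reads were trimmed and aligned to GRCm38 (cutadapt 2.4 and STAR 2.7.2a in the submitters' processing notes), and the authors deposited raw counts per gene, with no normalization. Which strand column was counted is not given in the sources used here, so overlapping and antisense genes are uncertain. Of 54446 gene identifiers, 54409 were matched to symbols by the Gencode annotation of GRCm38.

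All 12 libraries of the experiment (20.5 to 25.3 M counts each) entered 1 fit so that they share an estimate of the spread. Counts were filtered with filterByExpr (minimum count 10, minimum total 15), scaled by TMM and tested by the robust quasi-likelihood F-test of edgeR 4.0.16 in R 4.3.3, with Benjamini-Hochberg adjustment over 16615 genes and a threshold of 0.05. CPM are counts scaled to a common library total with the TMM factors, log2 CPM use a prior count of 2, and ± values are standard errors. List scores were given no p, and no set test was run. Counts were also simulated for the anti-PD1 and vehicle comparison, with 200 of the 16615 genes changed. There an adjusted p under 0.05 recovered 0% of genes changed by a log2 fold of 1, 54% by 2 and 81.5% by 3. Other shares of changed genes were not simulated. For a named gene with no more than 3 counts in every library of a group, a ratio of summed counts with an exact interval was computed.

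Named genes were a panel of 16 target, T cell and interferon genes, the 8 genes of smallest unadjusted p in each direction above a mean of 1 log2 CPM and with no overlap, up to 2 genes of smallest p per list and the 2 of smallest interaction p. Some genes that this rule names are not reported here. The members and the 42 lists were chosen with earlier results of these data known. The correlation of deviations of same-numbered libraries was over 0.1 in 6 of 18 pairs (-0.28 to 0.62 over all) and in 1 of 3 for the groups compared (0.03, -0.2 and 0.11), so the numbers were not taken as pairs. The alternatives were DESeq2 1.42.0, limma-voom (limma 3.58.1), RLE and total count scaling, no filter, at least 10 counts in every library, a fit of the compared groups alone, the hepatocyte score as a covariate, the replicate number as a block and leaving out each library.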

Additional observations from a re-analysis of the deposited data

Results flagged for a closer look

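Scores of M2 macrophage markers and of Kupffer cell and liver sinusoid genes moved in opposite directions with anti-PD1 without and with regorafenib. They were picked because, of the 42 lists, only these separated the groups completely in opposite directions. For M2 macrophage markers the mean score changed by -0.95 on the log2 scale without regorafenib and by 0.53 with it, every anti-PD1 library lying below every vehicle library and every combination library above every regorafenib library. For Kupffer cell and liver sinusoid genes the mean score changed by -1.92 without and by 1.32 with regorafenib, again with no overlap in either comparison. Hepatocyte scores moved with them, at 7.58, 7.09 and 7.64 in vehicle, 4.18, 5.72 and 5.31 in anti-PD1, 6.21, 6.84 and 4.22 in regorafenib and 8.95, 6.43 and 6.18 in combination tumors, and their part in the pattern was not tested. The difference between the 2 score changes was not tested. Per gene, the interaction reached an unadjusted p under 0.05 in edgeR for 5 of 19 M2 markers and 14 of 20 Kupffer and sinusoid genes, against 10.8% of all tested genes. None of them reached an adjusted p under 0.05. Other macrophage lists did not share the pattern. Scores of the tumor associated macrophage and M1 lists overlapped in both comparisons, and the median change of the former was 0.36 without and 0.19 with regorafenib.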

How the results depend on the processing

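No gene passed an adjusted p of 0.05 in edgeR or limma-voom under any setting run (limma-voom once per test, all other settings in edgeR), for either the anti-PD1 change or its difference with regorafenib, whereas DESeq2 passed 614 and 534. Genes of the anti-PD1 change at an unadjusted p under 0.05, 2269 in all 12 libraries, numbered 1208 with the hepatocyte score as a covariate and 1218 (without anti-PD1 replicate 1) to 2982 (without anti-PD1 replicate 3) when 1 library was left out. For the difference with regorafenib 1794 became 985 with the covariate and 1318 (without anti-PD1 replicate 2) to 2426 (without anti-PD1 replicate 3). The replicate block also left 0 genes past the adjusted threshold in either test, with 2391 and 2047 at an unadjusted p under 0.05, but the numbers are not pairs. Signs turned for 11 of the named gene values. Leaving out 1 library gave log2 changes from -1.09 to 0.48 for Cd3e, -0.76 to 0.19 for Cd4, -1.39 to 0.66 for Cd8a, -2.51 to 0.66 for Ifng, -2.77 to 0.84 for Cxcl9, -1.14 to 0.72 for Cxcl10, -0.66 to 0.29 for Lag3 and -1.53 to 0.56 for Ciita, each highest without vehicle replicate 1. Lag3 was also 0.01 in limma-voom and 0.13 without anti-PD1 replicate 2, and Havcr2 was -0.22 with the covariate. None of these genes reached an unadjusted p under 0.05 in the comparison as designed. DESeq2 put 54 of the named genes past the threshold with the same direction. Under RLE or total count scaling and without a filter they kept direction and side of the threshold, as did those that the filter of at least 10 counts in every library left in the fit. The cause of these shifts was not tested. In the simulation with 200 changed genes and 3 libraries a group, edgeR called no gene changed by a log2 fold of 1. How far this holds for another share of changed genes was not tested.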
